A study of Mus musculus with 16 samples.

Results

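The wild-type embryonic stem (ES) cell cultures of the Prdm4 series fell into 2 sets on the arrays, and this account describes how they differed. The first set was wild-type arrays 1, 5 and 6, and the second set was wild-type arrays 2, 3 and 4, which made 6 of the 16 arrays in the series. The sets were selected on the expression values of these same arrays. Every difference between them is therefore given as a level, a range or a count, with no p. All cells were CCE ES cells, a mouse line of 129/Sv origin, grown without feeder cells in the presence of LIF. The 6 wild-type cultures carried intact Prdm4 (Prdm4+/+). The 4 null arrays came from cells with the zinc finger exons deleted on both alleles, and the 6 Prdm4-EGFP arrays from cells stably transfected with a Prdm4-EGFP fusion under a chicken beta-actin promoter. The deposited design speaks of clones, but nothing says whether the cultures of a group were derived separately, so spread between arrays may be narrower than spread between independent lines. The labels give neither passage nor date, and the sets are not part of the design.

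ES cells are derived from the inner cell mass and keep a network of transcription factors, with Oct4, Nanog and Sox2 at its core, that holds them pluripotent. Such cultures are mixtures, in which a minority of cells passes through a state resembling the embryo at its first cleavage, marked by the Zscan4 zinc finger genes and the Tcstv genes. Other cells drift towards the epiblast, marked by Otx2 and Pou3f1, or towards primitive endoderm, marked by Gata6. In bulk RNA, more cells of a state and more RNA per cell cannot be told apart.

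Each array measured 45281 probes by bead fluorescence, and 14157 to 14629 of them were above background on a wild-type array (detection p under 0.01). The probes above background on at least 3 of the 6 wild-type arrays numbered 14545 and stood for 8329 genes. Levels below are log2 signals after background correction and quantile normalization, and differences are the mean of the first set minus the mean of the second. Identity as ES cells was shared by both sets. All 8 ES cell markers were above background, with Pou5f1 (Oct4) at 12.72 or above, Nanog at 11.60 to 11.98 and Zfp42 (Rex1) at 12.47 to 12.76 on the 6 arrays, and their differences ran from -0.12 (Esrrb) to 0.27 (Tdgf1). Prdm4 itself lay at 10.17 to 10.40, with a difference of 0.08 between the sets. The null arrays read 9.56 to 9.72 on the same probe, and the Prdm4-EGFP arrays 10.07 to 10.34. Where the probe lies relative to the deleted exons and the transfected sequence is not known here.

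The first principal component of the 6 wild-type arrays held 45.9% of their variance and placed the first set on its positive side. Arrays 1, 5 and 6 scored 25.7, 8.64 and 7.47, and arrays 2, 3 and 4 scored -7.51, -16.5 and -17.8. Array 1 stood well apart from its partners 5 and 6. The second component held 21.8% and parted arrays 1 and 2 (-12.7 and -12.4) from arrays 5 and 6 (10.3 and 16.1). Neither set was tight over all probes. Deviations from the wild-type mean correlated across genes at -0.04 to 0.20 within the first set and at 0.02 to 0.50 within the second, against -0.61 to -0.24 between sets, and genes are not independent replicates. Between 9 and 91 probes differed by 2-fold or more within a pair of the first set, 10 to 47 within the second and 74 to 254 across the sets. Because deviations were taken from the mean of these same 6 arrays, correlations below 0 arise between unrelated arrays too, and 0 is not the baseline. In the 28226 probes below background on all 16 arrays, mean correlation was -0.191 within the first set, -0.173 within the second and -0.210 across.

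**Figure D1:**
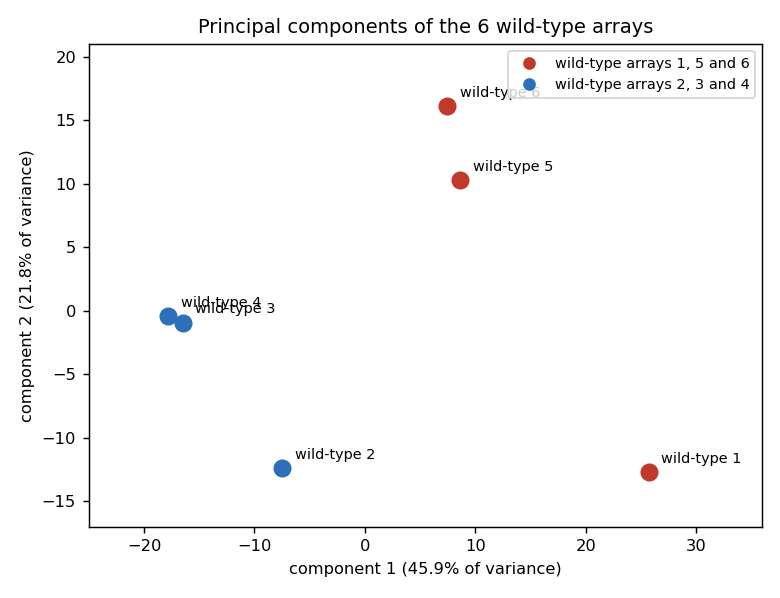
Principal components of the 6 wild-type arrays over the 14545 probes, with component 1 (45.9% of variance) on the horizontal and component 2 (21.8%) on the vertical axis; each point is an array. Arrays 1, 5 and 6 lie between 7.47 and 25.7 on component 1 and arrays 2, 3 and 4 between -17.8 and -7.51, with array 1 farthest from the rest.

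The arrays of the sets did not overlap in 2083 of 8329 genes (25%), a share that choosing the sets by these values helped to fix. A gene was called set apart where its arrays did not overlap and the difference was at least 0.5 (1.41-fold). That held for 309 genes, 165 higher in the first set (1.98%) and 144 higher in the second (1.73%). At a difference of 1 or more, 24 genes were higher in the first set and 16 in the second. The median size of the difference over all genes was 0.122, and its 99th percentile 0.800. At the edge of the rule, Ankrd37 (0.5005) was just inside and Rfxap (0.4991) just outside on the positive side, and Ermard (-0.5003) and Rnf17 (-0.4982) on the negative side. Of 93 set-apart genes with several probes, 78 had all probes differing in 1 direction.

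The set-apart genes were unevenly placed along the chromosomes. Chromosome 14 held 44 of them, 13 higher and 31 lower in the first set, which was 15.3% of its 288 genes. On the other 19 chromosomes measured the share was 1.37 to 6.55%. Median differences per chromosome nonetheless ran only from -0.03 to 0.02, so the uneven placement lay in stretches and not in whole chromosomes. In running medians over 11 neighbouring genes the lowest value was -1.62, between Bora and Ndfip2 on chromosome 14, and the highest was 0.47, between Piwil2 and Dok2 on the same chromosome. Elsewhere the extremes were -0.36 on chromosome 3 (St6galnac3 to Depdc1a), -0.35 on chromosome 1 (BC055324 to Ildr2) and 0.37 on chromosome 4 (Pramel12 to Miip).

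**Figure D2:**
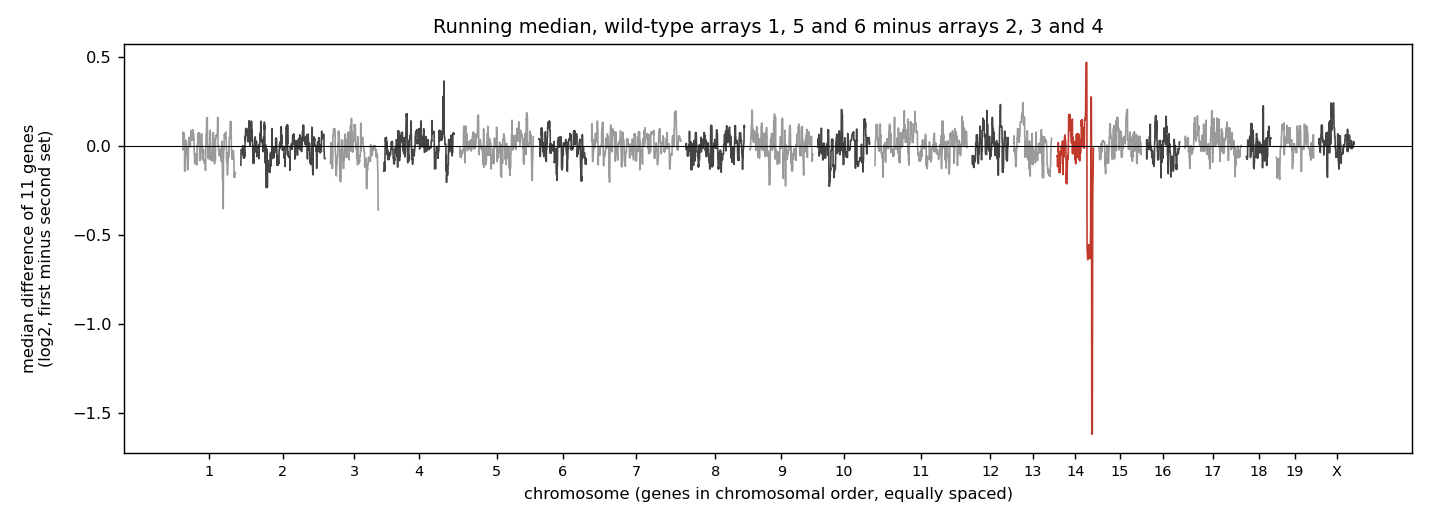
Running median of the difference between the wild-type sets (log2, first minus second) over 11 neighbouring genes, with genes in chromosomal order on chromosomes 1 to 19 and X. Chromosome 14, in red, reaches -1.62 and 0.47, while the other chromosomes stay between -0.36 and 0.37.

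The deepest stretch ran from Commd6 to Ndfip2 near the end of chromosome 14 and was about 4 times lower in the first set. All 7 measured genes were lower there, from -2.30 to -1.09 (median -1.96, or 3.88-fold). All 7 had non-overlapping arrays, against 25% of all genes. The stretch was found by this same difference, so these counts follow from how it was chosen. Uchl3, a deubiquitinating enzyme of the ubiquitin pathway, read 9.51, 9.43 and 9.08 on arrays 1, 5 and 6 and 11.36, 11.17 and 11.35 on arrays 2, 3 and 4. The gap between the sets was 1.67, several times the spread inside either set. Commd6, a COMM domain protein, read 9.12, 8.93 and 8.94 against 10.90, 10.85 and 10.92. Rbm26, an RNA-binding protein, read 7.81, 8.21 and 7.97 on arrays 1, 5 and 6 against 9.91 to 10.01 on the others, and 2 further probes of it above background differed by -2.33 and -1.81. Array 1, which stood apart on the first component, was level with arrays 5 and 6 in these genes.

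The remaining members were lower in the first set too, with lower signal. Mycbp2, a very large ubiquitin ligase, differed by -1.98, and by -0.58 on a second probe that was above background on 4 wild-type arrays. Pou4f1, a POU factor of sensory neurons, differed by -1.62 and was above background on 1 of the 3 arrays of the first set. Obi1, a ubiquitin ligase of replication origins, read 4.72, 4.86 and 4.85 in the first set, not well above background, and 6.38, 5.69 and 5.61 in the second, which was at least 1.21-fold higher (a bound that sets an undetected probe at the lowest detected signal of its array). Ndfip2, an adaptor of Nedd4-type ligases, was at least 2.95-fold higher in the second set by its main probe, but its second probe differed by only -0.15. Obi1 and the main probe of Ndfip2 met the detection rule only through the second set. The 6 Prdm4-EGFP arrays lay at the level of the second set in this stretch (median difference from it -0.04), and the 4 null arrays lay between the sets (median -0.79). The fit of Prdm4-EGFP against null, which used no wild-type array, called all 7 genes higher in Prdm4-EGFP, where 26% of all genes were called higher and 26.2% lower. Uchl3 differed there by 1.02 (limma adjusted p = 4.7e-07) and Commd6 by 1.28 (limma adjusted p = 2.1e-08). In a fit of all 16 arrays with 3 group means, whose spread takes in both wild-type sets, Mycbp2 (limma adjusted p = 0.33), Obi1 (0.095), Pou4f1 (0.39) and Rbm26 (0.10) no longer passed, while Uchl3, Commd6 and Ndfip2 did. Pou4f1 also missed the threshold without null array 3 (limma adjusted p = 0.071).

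Promoter sequence is shown for Uchl3, whose arrays separate the sets so sharply, to set its CpG-rich start beside the CpG-poor one of Zscan4c, a graded gene described below. The pair is an example and no rule. Upk3bl, with 3 CpGs, and Dpp4, with 4, also had clear gaps between the sets (1.13 and 0.85). Each covers 300 bases from RefSeq (GRCm38.p6), 5′ to 3′ on the strand of the gene, with CpG dinucleotides in capitals. The Uchl3 window (chr14:101653717-101654016, plus strand) held 27 CpGs and the Zscan4c window (chr7:11005495-11005794, plus strand) held 4.
Uchl3: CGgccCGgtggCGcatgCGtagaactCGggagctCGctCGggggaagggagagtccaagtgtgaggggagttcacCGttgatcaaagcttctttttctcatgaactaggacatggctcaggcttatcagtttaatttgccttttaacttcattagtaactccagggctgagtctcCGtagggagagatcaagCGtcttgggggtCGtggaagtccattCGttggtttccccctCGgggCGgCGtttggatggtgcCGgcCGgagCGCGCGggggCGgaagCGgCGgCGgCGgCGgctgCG
Zscan4c: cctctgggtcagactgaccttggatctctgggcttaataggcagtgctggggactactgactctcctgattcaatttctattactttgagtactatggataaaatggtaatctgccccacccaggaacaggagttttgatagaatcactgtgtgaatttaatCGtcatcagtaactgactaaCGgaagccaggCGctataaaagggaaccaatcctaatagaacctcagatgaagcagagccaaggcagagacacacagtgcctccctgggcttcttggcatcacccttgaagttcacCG

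Next to this stretch the sign alternated. From Reep4 to Dok2 all 8 genes were higher in the first set (0.16 to 0.90, median 0.61), and 7 had non-overlapping arrays. Fgf17, a secreted ligand of FGF receptors, led them with 10.62, 10.62 and 10.63 on arrays 1, 5 and 6 and 9.58, 9.85 and 9.73 on arrays 2, 3 and 4, and its second probe differed by 0.68. Dmtn, the actin-bundling protein dematin, differed by 0.71 and Hr, a nuclear receptor corepressor, by 0.60. From Rb1 to Sugt1, 27 of 28 genes were lower in the first set (median -0.62), 21 of them set apart. Kbtbd6, a substrate adaptor of a ubiquitin ligase, read 8.47, 8.72 and 8.84 against 9.62, 9.59 and 9.56. From Diaph3 to Klf5, 6 of 7 genes were again higher (median 0.42). Dis3, a ribonuclease of the RNA exosome, read 7.74, 7.89 and 7.64 against 7.31, 6.63 and 6.98. The ends of the stretches were placed after the values were seen, so the counts within them follow in part from that choice.

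The null arrays broke this pattern at other genes. Relative to the second set they were lower in 25 of the 28 genes from Rb1 to Sugt1 and in all 7 genes from Diaph3 to Klf5 (median -1.09), which were mostly higher in the first set. The exceptions were Rb1, Lpar6 and Gm1587, the last at 0.04. At Rb1 and Lpar6, where the first set was lower by 0.70 and 0.93 on the log2 scale, the null arrays were higher than the second set by 0.15 and 1.69. Beyond Ndfip2, from Mir17hg to Tmtc4, the null arrays were higher (median 0.91), with a median difference of -0.01 between the wild-type sets. The Prdm4-EGFP arrays had medians of -0.12, -0.01 and 0.03 against the second set from Reep4 to Dok2, Rb1 to Sugt1 and Diaph3 to Klf5. The medians between the wild-type sets were also taken within array numbers 1 and 2 and within numbers 3 and above. They were 0.66 and 0.58 for Reep4 to Dok2 and -0.51 and -0.70 for Rb1 to Sugt1. For Diaph3 to Klf5 they were 0.43 and 0.42, and for Commd6 to Ndfip2 -1.78 and -1.95. The stretches were chosen on these same arrays, so the shared signs are no separate observation.

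**Figure D3:**
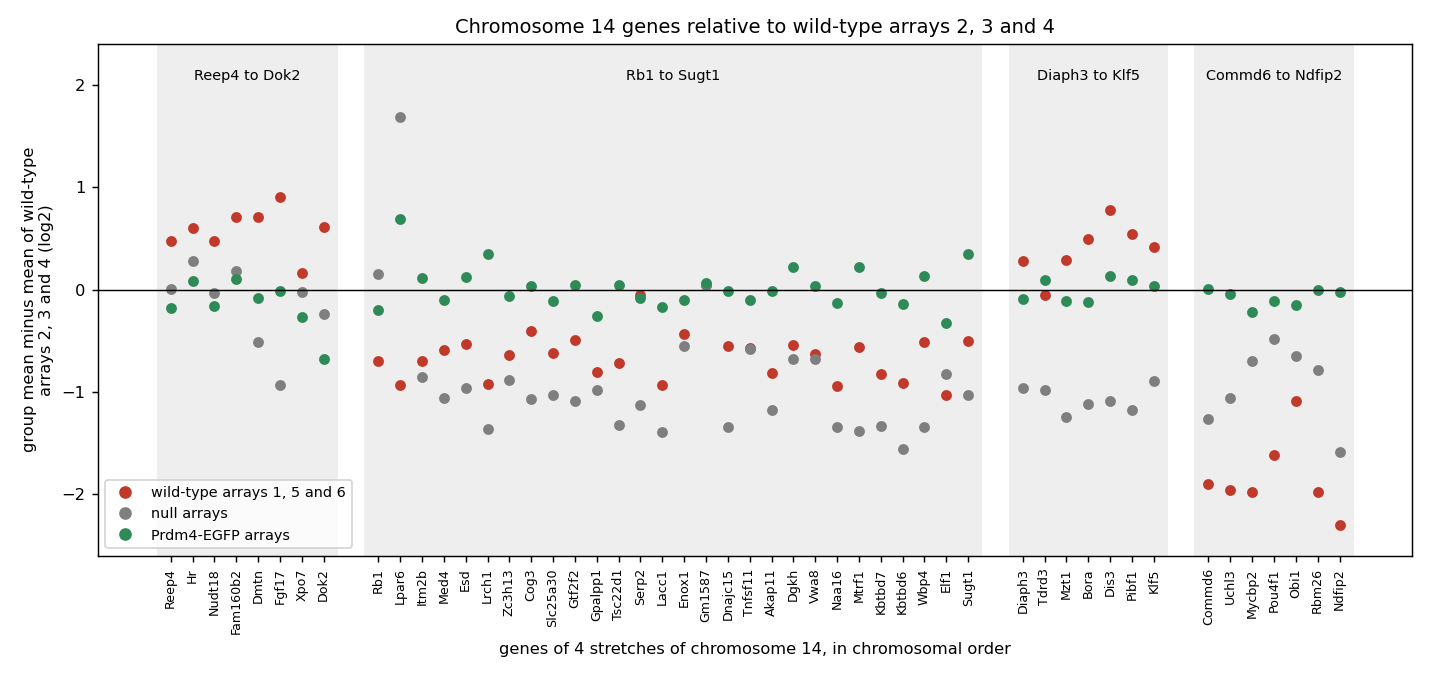
Difference of each group mean from the mean of wild-type arrays 2, 3 and 4 (log2, vertical axis) for the genes of 4 stretches of chromosome 14 in chromosomal order; red points are wild-type arrays 1, 5 and 6, grey the 4 null and green the 6 Prdm4-EGFP arrays. The red medians alternate between 0.61, -0.62, 0.42 and -1.96, while the green medians are -0.12, -0.01, 0.03 and -0.04, with single green points from -0.68 (Dok2) to 0.69 (Lpar6).

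Outside chromosome 14, 152 genes were higher and 113 lower in the first set. The lower genes included several with gaps as clean as those above. Ndufa13, a subunit of respiratory complex I, read 11.73, 11.49 and 11.42 on arrays 1, 5 and 6 and 12.49, 12.51 and 12.55 on arrays 2, 3 and 4. All 10 null and Prdm4-EGFP arrays lay with the second set, at 12.51 to 12.67. Tmem30a, a subunit of the flippases that move lipids across membranes, read 6.07, 6.05 and 5.97 against 7.37, 7.06 and 6.97. Here the null arrays lay with the first set (6.00 to 6.14) and the Prdm4-EGFP arrays with the second (6.90 to 7.11), a difference of 0.92 between them (limma adjusted p = 1.1e-07).

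Stmn2, a regulator of microtubules best known in neurons, had the largest difference outside chromosome 14 on the negative side (-1.79). It read 8.02, 7.92 and 7.92 in the first set and 9.53, 10.26 and 9.43 in the second, and all null and Prdm4-EGFP arrays were at 9.70 or above. On chromosome 3, Lrrc40, a leucine-rich repeat protein, was at least 1.95-fold higher in the second set, being not well above background on any array of the first, and its neighbour Ankrd13c, above background on 2 of the 3 arrays of the first set, differed by -1.09. Izumo2, of a family of sperm proteins, was at least 2.06-fold higher in the second set. Aim2, a sensor of cytosolic DNA, read 6.65, 6.45 and 6.21 against 7.64, 7.41 and 7.80, with the null arrays highest of all at 8.12 to 8.35. Rbmx, a splicing factor encoded on the X chromosome, differed by -1.07 and was above background on 1 of the 3 arrays of the first set.

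**Figure D4:**
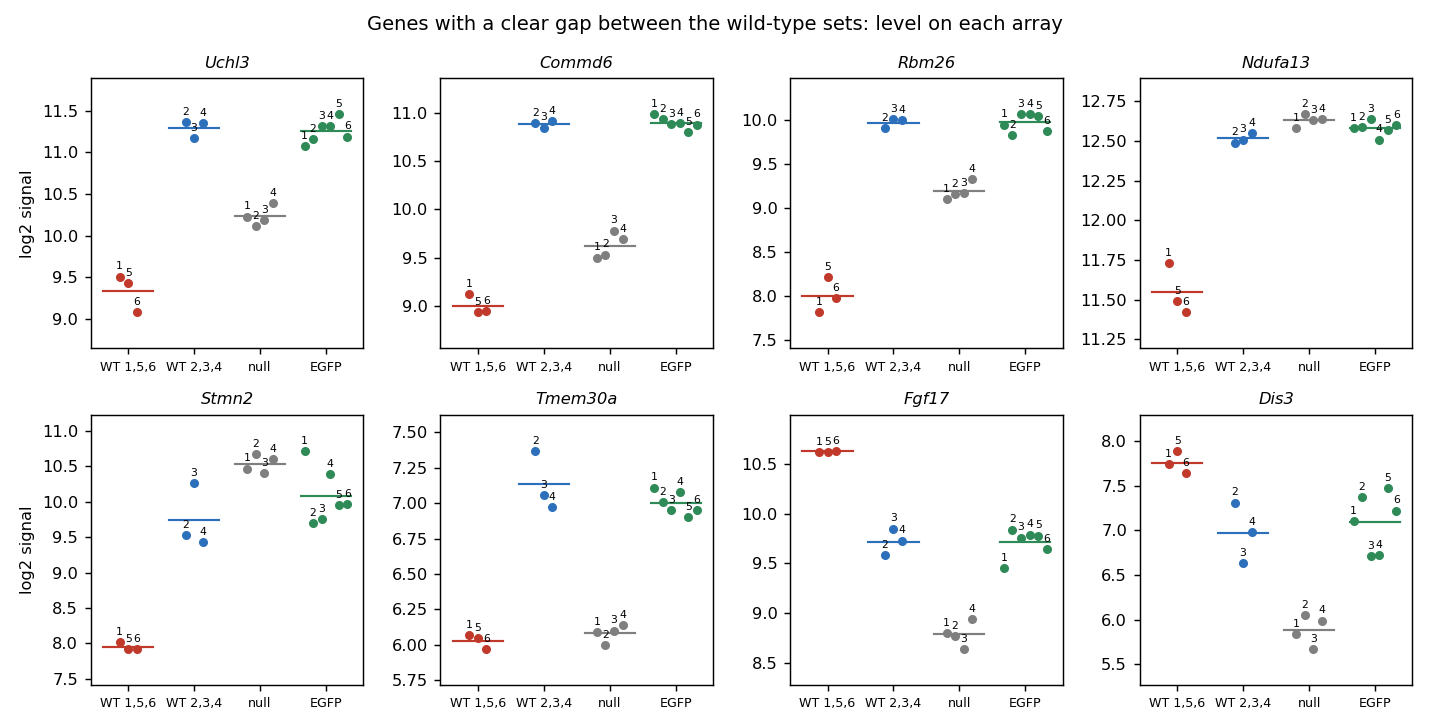
Level (log2 signal, vertical axis) on each of the 16 arrays for 8 genes with a gap between the wild-type sets; points carry the replicate number and lines are group means. Uchl3, Commd6 and Rbm26 show gaps of 1.67 to 1.73 between wild-type arrays 1, 5, 6 and 2, 3, 4, and in Ndufa13 the null and Prdm4-EGFP arrays lie with arrays 2, 3 and 4.

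The largest difference between the sets was that of Xlr4a, an X-linked gene of a clustered multicopy family, at 3.64 (12.5-fold). It read 10.90, 9.56 and 11.61 on arrays 1, 5 and 6 and 7.77, 7.38 and 6.00 on arrays 2, 3 and 4. The lowest array of the first set was 1.79 above the highest of the second, yet both sets were spread over more than 1 log2 unit. The null arrays lay with the first set at 10.12 to 10.51, and the Prdm4-EGFP arrays were at 5.62 to 7.10, within or below the range of the second set. Between those 2 groups the difference was -4.06 (limma adjusted p = 1.9e-08).

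The family has near-identical copies, so the assignment of the signal to Xlr4a rests on its probe. The array also carried 1 probe for Xlr4b and 3 for Xlr4c, and none of them was above background on any wild-type array, with levels of 4.32 to 4.71. Levels of different probes cannot be set against each other, so no difference between the copies is read from them. The promoter windows are shown to print how alike the copies are. Over 270 bases aligned without gaps, Xlr4a (chrX:73082458-73082757, minus strand) and Xlr4c (chrX:73243081-73243380, minus strand) were identical at 265, or 98.1%, and the 5 bases that differ are in capitals (RefSeq, GRCm38.p6). Xlr4a and Xlr4b shared 269 of 293 bases.
Xlr4a: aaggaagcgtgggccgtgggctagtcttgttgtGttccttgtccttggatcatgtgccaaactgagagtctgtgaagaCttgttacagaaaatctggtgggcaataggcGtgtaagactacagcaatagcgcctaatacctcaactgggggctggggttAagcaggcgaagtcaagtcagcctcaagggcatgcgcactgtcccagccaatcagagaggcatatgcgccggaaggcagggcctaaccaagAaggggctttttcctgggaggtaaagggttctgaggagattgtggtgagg
Xlr4c: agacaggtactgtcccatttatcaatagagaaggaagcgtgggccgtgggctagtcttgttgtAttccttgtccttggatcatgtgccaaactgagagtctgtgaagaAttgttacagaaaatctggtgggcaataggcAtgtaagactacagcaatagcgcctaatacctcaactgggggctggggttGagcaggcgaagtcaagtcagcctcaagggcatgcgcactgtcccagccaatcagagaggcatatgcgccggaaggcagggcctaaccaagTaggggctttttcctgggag

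Genes of the Zscan4 state were higher in the first set, but in a graded way. Zscan4c read 9.97, 9.44 and 9.27 on arrays 1, 5 and 6 and 9.25, 8.72 and 7.99 on arrays 2, 3 and 4. The sets were parted by only 0.03, and the order of the arrays was continuous from array 1 down to array 4. Tcstv3 followed the same order with 7.68, 7.04 and 6.88 against 6.87, 5.76 and 5.11, a gap of 0.01, and was above background on 2 of the 3 arrays of the second set. Gm428 (8.96, 8.35 and 8.10 against 7.93, 7.55 and 6.53), Tnfrsf22, a decoy receptor of the TNF family (10.53, 9.83 and 9.75 against 9.64, 9.18 and 8.27) and Prex2, a Rac exchange factor (7.65, 7.35 and 7.27 against 6.63, 6.07 and 5.71), kept it too. The 4 probes of Tnfrsf22 did not run in 1 direction, their differences lying between -0.47 and 1.01. AF067061 (1.13) overlapped between the sets by 0.04. These genes thus had array 1 highest and array 4 lowest, in contrast to the chromosome 14 genes, in which array 1 did not stand out. Zscan4c and Tcstv3 belong to multicopy families and their probes may read several copies.

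Zscan4c and Gm428 were also graded among the Prdm4-EGFP arrays, which took no part in choosing the sets. Zscan4c read 7.96, 6.45, 6.60, 7.97, 6.15 and 8.93 on Prdm4-EGFP arrays 1 to 6. Gm428 read 5.74, 5.34, 5.11, 5.97, 5.05 and 6.80, and was above background on only 3 of the 6 arrays. Its values on arrays 2, 3 and 5 were below background, so its lower end is background signal. In both genes array 6 was highest, arrays 1 and 4 next, and arrays 2, 3 and 5 lowest. Tnfrsf22 read 8.58, 7.40, 7.34, 8.26, 7.08 and 9.10, but it was chosen after its values were seen, as 1 of the genes most like Zscan4c on these same arrays, so its order is no separate observation. Its Prdm4-EGFP minus null value fell in size from -2.18 to -0.25 when its probes were averaged (limma adjusted p = 0.12). The null arrays were high and close together, with Zscan4c at 9.52 to 9.90. Prdm4-EGFP minus null was -2.36 for Zscan4c (limma adjusted p = 0.00069) and -2.42 for Gm428 (limma adjusted p = 9.3e-06), both lower in Prdm4-EGFP. Of 15 measured genes of a list of 2-cell-like and germline genes, 6 were set apart, all higher in the first set, beside 1.98% of all genes (median difference 0.33, against 0.00314 over all genes). The fit called 9 of the 15 lower and 1 higher in Prdm4-EGFP than in null, beside 26.2% and 26% of all genes. The summed level of the 4 2-cell-like markers with a probe was 25.3 to 28.1 in the first set and 22.3 to 26.0 in the second. Tcstv1 and Zfp352 were not well above background on any wild-type array.

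**Figure D5:**
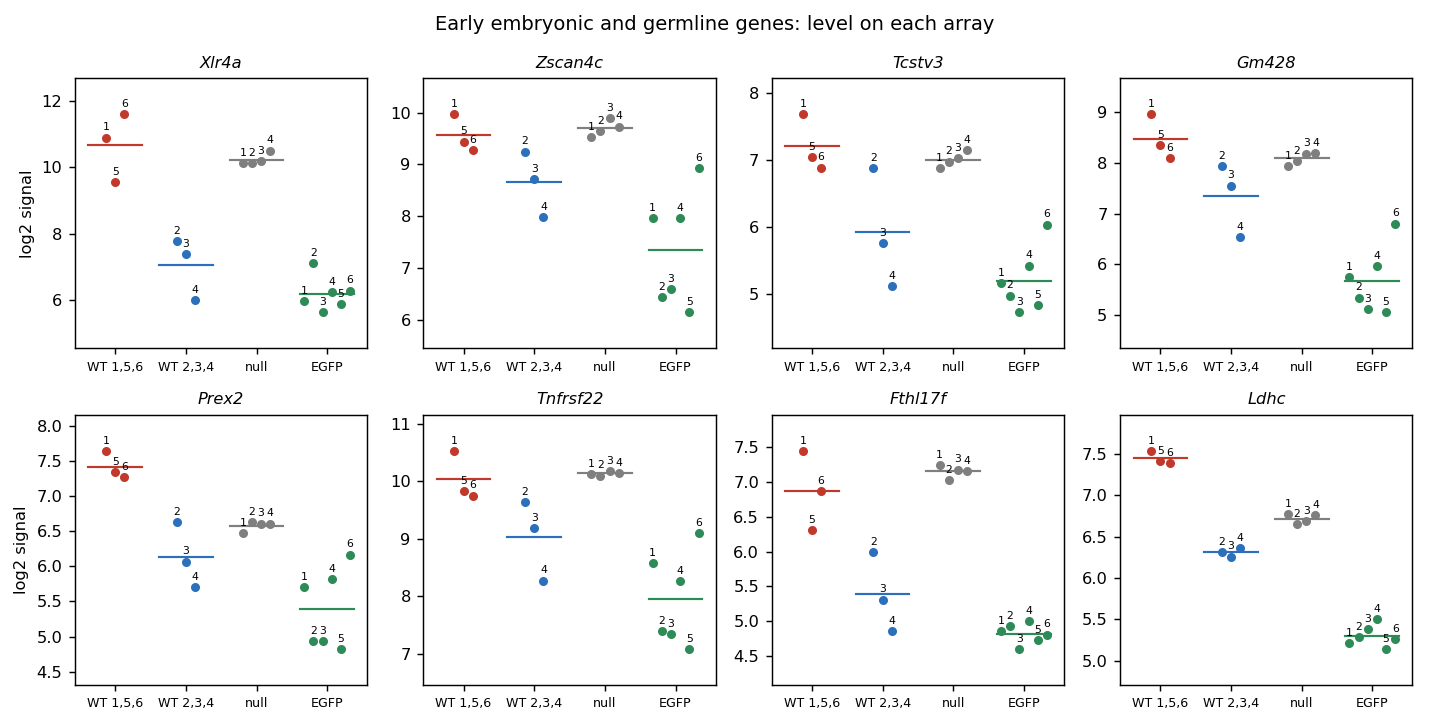
Level (log2 signal, vertical axis) on each of the 16 arrays for 8 genes of early embryonic or germline type; points carry the replicate number and lines are group means. Zscan4c, Tcstv3, Gm428 and Tnfrsf22 descend from wild-type array 1 to array 4 and are highest on Prdm4-EGFP array 6, while Ldhc parts the wild-type sets with a gap of 1.03. Of the 6 Prdm4-EGFP arrays, Gm428 was above background on 3 and Tcstv3 on 1.

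Other genes led the higher side with clearer gaps. Ldhc, the lactate dehydrogenase of the testis, read 7.54, 7.42 and 7.39 against 6.31, 6.26 and 6.36, and its other probes above background differed by 1.01 and 0.96. The unnamed transcript 2310039H08Rik read 9.67, 9.16 and 9.23 against 7.80, 7.90 and 7.89. Some of the leading genes encode proteins of the cell surface or membrane, but their share was not set against that of all genes. Dpp4, a surface dipeptidase, read 9.52, 9.22 and 9.33 against 8.36, 8.02 and 7.62. Nt5e, which makes adenosine outside the cell, was at least 1.93-fold higher in the first set, Slc6a13, a GABA transporter, at least 1.54-fold and Mfsd2a, a lipid transporter, at least 1.43-fold, each being not well above background on any array of the second set. The groups outside the wild-type arrays went separate ways here. Nt5e was at 6.14 to 6.75 in Prdm4-EGFP, beside 6.31 to 6.65 in the first set, and at 4.95 to 5.59 in null, a difference of 1.15 (limma adjusted p = 1.6e-05). Slc6a13 was at 4.62 to 4.87 on all 10 of those arrays. Fthl17f, a ferritin-like gene of a multicopy X-linked family, differed by 1.49 and Ttc39a by 1.45, but each was above background on only 1 of the 3 arrays of the second set. Upk3bl differed by 1.35, the scaffold protein gene Slc9a3r2 by 1.21 and Ldoc1 by 1.19.

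Otx2, Pou3f1 and single genes of several signalling pathways were also higher in the first set, while the signalling lists as a whole lay near 0. Otx2, a homeobox gene of the epiblast and forebrain on chromosome 14, read 8.28, 8.42 and 7.76 against 7.30, 7.09 and 7.09, and Pou3f1, a POU factor of the epiblast, read 7.59, 7.36 and 7.27 against 6.82, 6.81 and 6.82. Both were higher still on the null arrays, at 9.93 to 10.15 and 9.12 to 9.19. Of 6 measured genes of the formative and primed epiblast list, these 2 were set apart, beside 1.98% of all genes. Lefty2, a secreted antagonist of Nodal, read 11.39, 11.46 and 11.21 against 10.60, 10.61 and 10.77, and Lefty1 differed by 0.21 with a gap of 0.01. On the Prdm4-EGFP arrays Lefty2 ranged from 9.02 to 10.58. The other 13 measured genes of the Nodal and Activin list had no member set apart, beside 1.98% and 1.73% of all genes in the 2 directions. Of the 14, 10 were below 0 (median -0.06). Below 0 were also 6 of 11 BMP and Id genes (median -0.01), 8 of 14 FGF and Erk genes (-0.02) and 5 of 9 Wnt genes (-0.04). Id3, a target of BMP signalling, differed by 0.53, the Wnt target Axin2 by 0.58, the naive pluripotency factor Klf2 by 0.59, Stc2, a secreted glycoprotein of the stress response, by 0.98 and the chaperone partner Bag3 by 0.55.

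Targets of p53 tended to be lower in the first set. In the p53 and apoptosis list, 14 of 17 measured genes were below 0 (median -0.27) and 9 had non-overlapping arrays, beside 25% of all genes. The list had 1 member set apart on the negative side, beside 1.73% of all genes. Trp53inp1, a p53-induced protein, read 9.84, 10.04 and 9.81 against 10.46, 10.50 and 10.57. Mdm2, the ligase that degrades p53, differed by -0.43, Gadd45a by -0.46 and Sesn2 by -0.27, while Pmaip1, a p53-induced killer of the Bcl-2 family, was at 0.53. The fit called 14 of the 17 lower in Prdm4-EGFP than in null and 2 higher, beside 26.2% and 26% of all genes. In the list of actin, muscle and TGF-beta induced genes 10 of 14 were below 0 (median -0.20). Myl9, a myosin light chain, was at least 1.32-fold higher in the second set, and the tropomyosin gene Tpm1 differed by -0.54, while Tgfbi, an extracellular matrix protein, was at 0.60. Cdkn2a, an inhibitor of the cell cycle, differed by -0.50 with a gap of 0.41.

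Most other lists lay near 0. None of 12 core pluripotency genes, 22 DNA replication genes, 18 cholesterol synthesis genes, 33 oxidative phosphorylation genes, 16 mitosis genes, 15 LIF and Stat3 genes or 8 DNA methylation and Tet genes was set apart, with medians of 0.01, 0.01, 0.07, 0.04, -0.07, -0.05 and 0.00. Of 29 cytosolic ribosomal protein genes, Rplp0 alone was set apart (-0.51). Over all genes, 1.98% were set apart with the first set higher and 1.73% with the second higher. At those shares, lists of this size would hold few set-apart genes or none. Of the 7 feeder fibroblast markers, 6 were below background on every wild-type array, including Col1a1, Col3a1 and Dcn. The exception was Thy1 (8.88 to 9.36). A longer list of feeder fibroblast genes had 7 of 22 measured, with a median of -0.06. Of those, Loxl1 was set apart (0.69), and Lgals1, at 8.46 to 9.24, differed by -0.28. All 4 mesoderm markers with a probe (Mixl1, Eomes, Gsc and Mesp1) and all 4 trophoblast markers were below background. Primitive endoderm markers summed to 39.2 to 41.3 in the first set and 38.6 to 39.3 in the second. Sox7 differed by 0.39, Dab2 by 0.44 and Lrp2 by -0.54, while Gata4, Sox17 and Cubn were below background on every wild-type array and Gata6 was above it on 1. The part of such cells in the differences was not tested.

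Promoter windows were found for 121 of the 165 genes higher in the first set, for 114 of the 144 higher in the second and for 6815 of all 8329. The median number of CpGs was 15, 20 and 21. Windows with no more than 3 CpGs made up 12.4% of the first group, 4.39% of the second and 3.87% of all genes measured. Genes leading the first group lay at both ends. Ttc39a had 1 CpG, Gm428 2, Upk3bl 3 and Dpp4 4, while Ldoc1 had 15, 2310039H08Rik 17, Slc9a3r2 19, Mfsd2a 22 and Nt5e 23. The letters CACGTG, read on both strands at once since they are their own reverse complement, were in 8.26%, 7.02% and 10.9% of these windows.

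Single wild-type arrays also departed from all others, whatever their set. Grb10, an imprinted adaptor of insulin receptor signalling, read 6.39 on array 6 and 9.69 to 10.26 on the other 5. A second Grb10 probe was above background on 5 of the 6 wild-type arrays, at 6.09 to 6.62. On array 6 it gave 5.44, which was background signal. Cdkn1c, an imprinted inhibitor of the cell cycle, read 10.78 on array 6 and 11.98 to 12.27 elsewhere, and its imprinted neighbour Phlda2 read 11.12 against 11.70 to 11.82. Impact, another imprinted gene, was highest on array 6 at 11.40, against 10.56 to 10.97. Phlda2 and Impact were chosen after their values were seen and lay less than 1 log2 unit from the nearest array. Of other imprinted genes, Igf2, Peg3 and Ndn on array 6 lay within the range of the other arrays. Kcnq1ot1 and Peg10 were highest there and Slc22a18 lowest. The difference of Grb10 between the sets (-0.90) rested on array 6 and was 0.36 without it. Eif2s3y, a translation factor gene of the Y chromosome, read 6.71 on array 3 and 8.89 to 9.37 on the rest. A distance of at least 1 log2 unit from every other wild-type array was found for 9 genes on array 1, 1 on array 2, 1 on array 3, 2 on array 4, 0 on array 5 and 2 on array 6.

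Over the 309 set-apart genes the Prdm4-EGFP arrays resembled the second set. Their mean was nearer to the second set in 265 genes (85.8%) and nearer to the first in 44. The position of the mean, scaled so that 0 is the second set and 1 the first, had a median of 0.139. Without chromosome 14 the share was 83.8%. The null arrays were nearer to the second set in 173 genes (56.0%), with 69.1% of the genes higher in the first set and 41.0% of those higher in the second. No such share was taken over all genes. Whether the likeness is particular to the set-apart genes was therefore not tested.

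Spread of the set-apart genes was also taken over arrays that did not choose the sets, beside all genes, which were not matched for signal level. The median SD of the 165 genes higher in the first set was 0.206 over the 6 Prdm4-EGFP arrays and 0.127 over the 4 null arrays, against 0.127 and 0.105 over all genes. For the 144 genes higher in the second set it was 0.149 and 0.117, closer to the values of all genes. The fit of Prdm4-EGFP against null called 82 of those 144 genes higher in Prdm4-EGFP (56.9%) and 29 lower (20.1%), beside 26% and 26.2% of all genes. Without chromosome 14 the share called higher was 48.7%. Of the 165 genes higher in the first set, 48 were called higher (29.1%) and 62 lower (37.6%). The null arrays enter both the placement and the fit, so these counts are not separate evidence.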

How the data were processed

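Total RNA of 16 mouse ES cell cultures was hybridised to Illumina Mouse WG-6 v2 bead arrays. The deposited scanner table held, per the file headers, a linear signal intensity and a detection p-value for 45281 probes on each array. The authors also deposited intensity values after rank-invariant normalization, which served as an alternative.

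Log2 levels were made from the scanner table by the neqc function of limma 3.58.1 under R 4.3.3 (background correction, offset 16, quantile normalization over 16 arrays, log2). Of the probes, 34885 carried 1 symbol in the platform table, 18 several and 10378 none. Gene order came from a RefSeq table (GRCm38.p6), which matched 8320 of 8329 genes. The probe with the highest mean stood for a gene. The array build is not given in the sources used here, so no coordinates of probes are used.

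Prdm4-EGFP (6) and null (4) arrays were compared with limma's lmFit and eBayes, two-sided, with Benjamini-Hochberg adjustment over 14545 probes and a threshold of 0.05. On simulated data for this comparison, run over 14545 probes, 72.0% of probes changed by 0.5 and 98.0% of those changed by 1 were recovered. There were 11 false calls among the unchanged probes. The simulated noise was independent between arrays and probes, which real arrays need not be. Named genes were the 15 largest differences in each direction without overlap, up to 4 members per list discussed, Prdm4 and the ES cell markers. Others, including Zscan4c, Tnfrsf22, Gm5662, Impact, Phlda2, Eif2s3y, Kbtbd6, Dis3, Dmtn, Hr, Ndufa13 and Cdkn2a, were chosen after their values were seen. The sets, lists and genes were chosen with earlier results of these data known. The p-values measure spread between cultures, which may be technical. Precision is limited by the number of arrays, and p-values of deposited detection compare a probe with negative control beads. Python 3.11.15 and matplotlib 3.10.9 drew the figures.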

Additional observations from a re-analysis of the deposited data

Results flagged for a closer look

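In 162 named genes, each looked at in 3 groups, 29 of 486 group values had 1 array farther from the rest than Dixon's limit for a group of that size. Chance alone gives about 1 in 20. Among the wild-type arrays, array 6 stood lowest for Grb10 (6.39, others 9.69 to 10.26), Cdkn1c (10.78, others 11.98 to 12.27) and Fbxo15 (10.90, others 11.23 to 11.33), and highest for Utf1 (11.11, others 10.87 to 10.94). Grb10 and Cdkn1c are imprinted genes, and Fbxo15 and Utf1 are genes of pluripotent cells. Array 1 stood lowest for Insig1 (7.06), a regulator of cholesterol synthesis, and Mcm3 (10.29), a part of the replicative helicase, and highest for the ribosomal protein gene Rpl7a (12.48).

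Among the Prdm4-EGFP arrays, array 3 stood highest for Insig1 (8.07), Lgals1 (9.44) and Rpl22 (10.94) and lowest for Ascl2 (5.22), Prdm4 (10.07, others 10.24 to 10.34) and Rpl7a (11.78). Array 2 stood highest for Hsph1 (11.27), Stat2 (6.19) and Tet1 (11.30) and lowest for Rpl4 (11.69). Array 1 stood highest for Nt5e (6.75) and lowest for Dppa5a (14.59), Idi1 (5.06) and Tcf7l1 (10.66), and array 5 stood lowest for Sesn2 (7.01). Among the null arrays, array 1 stood highest for Bora (9.13) and lowest for Prex2 (6.48), array 2 highest for Stat2 (6.01), array 3 lowest for Kcnq1ot1 (6.61) and Top2a (11.39), and array 4 highest for Phgdh (8.67) and Xlr4a (10.51). None of these values was tested further.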

How the results depend on the processing

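The count of 309 set-apart genes was 236 to 364 under other normalizations, the deposited values, other detection filters and averaging of probes, and 265 without chromosome 14, a setting chosen after seeing the data. Leaving out each wild-type array in turn gave 320 to 431 genes, with 162 to 251 higher in the first set, the 251 being without array 2, and 156 to 185 higher in the second. Array 1 against array 2 alone gave 844 genes (463 higher and 381 lower) with no replicates, where the rule asks less of each gene. Arrays 5 and 6 against arrays 3 and 4 gave 401. All 30 largest differences kept their direction under the 14 settings that gave them a value (17 of them when detection on all 6 arrays was asked). These genes were picked for arrays that do not overlap. Settings that only left arrays out could therefore not change a direction. The difference of Grb10 (-0.90) ran from -1.57 to 0.36 as single arrays were left out and was 0.20 within array numbers 1 and 2, where H2-K1 was -0.13 and Pmaip1 -0.02 in place of 0.50 and 0.53. For Prdm4-EGFP against null, 4350 genes were called, 3828 to 4345 without single arrays and 4050 to 4713 under other scalings, filters and models. With the replicate number as a block, the count was 3866. Arrays with the same number correlated at 0.0224 to 0.255 over 4 pairs (mean 0.157). Those with different numbers correlated at -0.235 to 0.173 over 20 pairs (mean -0.0316). Of the 4 null arrays, 2 matched their own number best. The main fit did not take the numbers as pairs, and these values do not settle whether they are. In this comparison Smad5 turned from 0.12 to -0.21 with probes averaged and Trim28 from -0.20 to 0.01 in the deposited values, and Pou4f1 missed the threshold with no detection filter (limma adjusted p = 0.054). The cause was not tested. Signal over background limits Obi1, Pou4f1, Slc6a13 and the other dim genes named.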
